A study of Mus musculus with 4 samples.

Results

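Cycling monocytes and macrophages were the cells that held RNA of the dividing cell together with RNA of lysozyme 2 (Lyz2), an antibacterial enzyme made in large amounts by myeloid cells. They were counted in immune cells that had entered brain tumours of C57BL/6 mice, taken at the symptomatic stage and profiled as 4 single-cell libraries, 2 labelled mIDH1 (mutant IDH1) and 2 labelled wtIDH1 (wild-type IDH1). The study asked how tumour-infiltrating myeloid cells differ between these genotypes of a genetically engineered glioma model. Genotype below means that of the model, and none was measured in the immune cells themselves. IDH1 is an enzyme of the citrate pathway, and its mutant form produces the metabolite D-2-hydroxyglutarate. The labels give no age, no other tumour allele and no sorting gate, and do not say that each library is a separate animal, so p-values measure the spread between these libraries, which may be technical.

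A barcode was taken as a cycling cell if it passed a quality filter and met the further limits that follow. The filter asked for at least 200 genes and at most 10% of unique molecular identifiers (UMIs, the counted RNA molecules) from mitochondrial genes. A cycling cell held at least 3 UMIs of Mki67 plus Top2a, at least 10 of Lyz2 and no UMI of the T cell gene Cd3e. It also held fewer than 3 UMIs of the neutrophil granule genes Ngp, Camp and Ltf, with S100a8 plus S100a9 below 1% of its UMIs. Of 16289 barcodes, 154 met this rule, 24 and 10 in mIDH1 replicates 1 and 2 and 40 and 80 in wtIDH1 replicates 1 and 2. Cells that met every other limit but held no UMI of Mki67 or Top2a served for comparison and are called non-cycling. They numbered 2298, with 527 and 444 in the mIDH1 libraries and 674 and 653 in the wtIDH1 libraries. Pairs of values below follow the order of the replicates.

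A dividing cell passes through S phase, in which DNA is copied, then G2 and mitosis, in which the copies are separated. Mki67 encodes Ki-67, which coats mitotic chromosomes, and Top2a encodes topoisomerase II alpha, which untangles DNA. Both are made mainly from S phase to mitosis, so cells in G1 are largely missed by them. Monocytes enter a tumour from the blood and become macrophages there, while microglia are the resident macrophages of the brain and renew themselves by local division. Macrophages can keep dividing in tissue, which is usually driven by the receptor Csf1r and held back by transcription factors such as Maf.

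Cell cycle genes are switched on together through elements in their promoters, and 3 promoters are shown because their genes carried the cycle signal in these cells. Mcm6 (a subunit of the helicase that opens DNA) stands for S phase, and Cdk1 (the kinase that starts mitosis) and Ube2c (which helps mark mitotic cyclins for destruction) for G2 and mitosis. Each sequence is the 250 bases upstream of the RefSeq start on GRCm38.p6, read towards the gene. Capitals mark, on either strand, the E2F letters TTCGCGC or TTGGCGC, the CHR letters TTTGAA or TTCGAA and the letters CCAAT.
Mcm6, chr1:128359706-128359955, minus strand: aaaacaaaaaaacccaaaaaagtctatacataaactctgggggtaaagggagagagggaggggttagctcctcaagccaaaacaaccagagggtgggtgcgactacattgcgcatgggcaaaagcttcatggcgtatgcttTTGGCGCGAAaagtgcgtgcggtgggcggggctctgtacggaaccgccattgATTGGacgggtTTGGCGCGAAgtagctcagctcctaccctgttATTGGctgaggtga
Cdk1, chr10:69352913-69353162, minus strand: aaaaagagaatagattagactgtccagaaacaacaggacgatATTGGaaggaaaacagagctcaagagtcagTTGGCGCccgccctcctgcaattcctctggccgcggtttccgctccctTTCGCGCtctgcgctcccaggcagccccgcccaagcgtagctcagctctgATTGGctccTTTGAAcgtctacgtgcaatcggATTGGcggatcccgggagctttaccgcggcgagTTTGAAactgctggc
Ube2c, chr2:164769679-164769928, plus strand: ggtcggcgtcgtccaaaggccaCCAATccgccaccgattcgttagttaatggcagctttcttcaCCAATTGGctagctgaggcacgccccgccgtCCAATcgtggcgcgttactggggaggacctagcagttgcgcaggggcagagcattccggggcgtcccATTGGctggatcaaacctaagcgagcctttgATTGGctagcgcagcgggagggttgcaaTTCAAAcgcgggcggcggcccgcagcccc

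Mcm6 held both E2F forms overlapping on opposite strands, at 109 and again at 46 bases before the start, and had no CHR. Cdk1 held E2F letters at 178 and 130 bases and CHR letters at 71 and 15 bases before the start. Ube2c held CCAAT 6 times, with 1 overlap between strands, with 1 CHR at 29 bases and no E2F. Of the 63 G2 and M phase genes listed, 52 had a RefSeq promoter (82.5%), and 21 of these held CHR letters (40.4%), against 19.6% of all 27025 genes with a promoter in the table. CCAAT stood in 39 of the 52 (75%), against 37.5% of all genes, and E2F letters in 6 (11.5%), against 3.66%. Only 40 of 55 S phase genes had a promoter in the table, too few for a share. These matches describe letters in the windows and are not shown to be bound sites.

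The libraries held 4708 and 4173 barcodes in mIDH1 and 3707 and 3701 in wtIDH1, with total UMIs of 29849183 and 20908476 in mIDH1 and 23695857 and 22908011 in wtIDH1. Cells with S100a8 plus S100a9 at 1% or more, which the rule removes, made up 23.2% and 45.8% of quality cells in mIDH1 and 2.20% and 4.03% in wtIDH1. The medians over all quality cells were 3534 and 2740 UMIs in mIDH1 and 5071 and 4977 in wtIDH1. Over all libraries, 53 barcodes occurred in more than 1 library, none of them a cycling cell.

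Cycling cells were deep, with a median of 20789 UMIs (range 2253 to 80854), against 9675.5 in non-cycling cells. By library the median was 27080.5 and 19562 UMIs in mIDH1 and 16992.5 and 21704 in wtIDH1, so 1 of the mIDH1 libraries stood above and the other between the wtIDH1 libraries. Summed over cells, the UMIs available for gene comparisons were 671998 and 256360 in mIDH1 and 936787 and 1768791 in wtIDH1. In mIDH1 replicate 2, a single cell of 74631 UMIs gave 29.1% of that sum, with 19 UMIs of tumour cell markers, 36 of Lyz2 and 1 of C1qa. The deepest cell of wtIDH1 replicate 1 (80854 UMIs) held 58 UMIs of tumour cell markers, 19 of them Sox2. The deepest of wtIDH1 replicate 2 (60277 UMIs) held 705 UMIs of the NK cell list, 183 of them Gzmb, beside 135 of C1qa. These cells were kept. Gene tests without the deepest cell of each library were run between genotypes within cycling cells only. The difference from non-cycling cells was not refitted without these cells alone. It was refitted without all cells that held UMIs of other lineages, which include them.

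Values at the edges of the rule were as follows. Among cells that met its other limits, 18 and 8 in mIDH1 and 32 and 45 in wtIDH1 had 2 UMIs of Mki67 plus Top2a and stayed out, and 5 and 2 in mIDH1 and 18 and 27 in wtIDH1 had 3 and came in. At the Lyz2 limit, 3 and 2 otherwise cycling cells in mIDH1 and 7 and 8 in wtIDH1 had 5 to 9 UMIs, and 1 and 0 in mIDH1 and 4 and 6 in wtIDH1 had 10 to 14. The median cycling cell had 5 UMIs of Mki67 plus Top2a (at most 82) and 80.5 of Lyz2 (at most 966). Free RNA bears on the Lyz2 limit: of cells with at least 2 UMIs of Cd3e, 12 of 475 and 2 of 204 in mIDH1 and 16 of 310 and 12 of 295 in wtIDH1 also reached 10 Lyz2 UMIs, at median depths of 5528 to 6850 UMIs. The median Lyz2 count of cycling cells rich in T cell markers was 0 in every library, at median depths of 18243 and 21692 UMIs in mIDH1 and 14526.5 and 11520 in wtIDH1.

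Macrophage and monocyte markers were abundant in the cycling cells, and some cells also held RNA of other lineages. The macrophage list of 18 genes summed to 32445 and 18572 CPM (counts per 1e6 UMIs in the summed cells) in mIDH1 and 25583 and 30774 CPM in wtIDH1, with 17 genes detected in every library and Cd163 at 0. The monocyte list of 14 genes was detected in full, at 4280 and 4786 CPM in mIDH1 and 5075 and 2261 CPM in wtIDH1. T cell markers gave 4 and 2 UMIs in mIDH1 and 54 and 41 in wtIDH1, where 4 and 2 cells held at least 2 of them. Markers of neutrophil precursors gave 52 and 64 UMIs in mIDH1, 56 of the 64 in 1 cell, and 12 and 12 in wtIDH1, with Ngp and Camp at 0 throughout. The neutrophil list stood at 970 and 554 CPM in mIDH1 and 745 and 570 CPM in wtIDH1, with at least 2 of its UMIs in 87.5% and 90% of cycling cells in mIDH1 and 65% and 75% in wtIDH1. At least 2 UMIs of the T, NK, B, tumour or erythroid list were held by 5 of 24 and 2 of 10 cycling cells in mIDH1 and 15 of 40 and 16 of 80 in wtIDH1. Of the cells of highest doublet score 0 and 0 were cycling cells in mIDH1 and 8 and 8 in wtIDH1. Csf1r, the receptor that macrophages need to live and divide, stood at 490 and 246 CPM in mIDH1 and 476 and 449 CPM in wtIDH1.

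Cycling cells formed 3.43% and 1.73% of all cells with at least 10 Lyz2 UMIs in mIDH1 (24 of 700 and 10 of 577) and 4.42% and 8.64% in wtIDH1 (40 of 905 and 80 of 926). The 95% Wilson intervals were 2.31 to 5.05% and 0.944 to 3.16% in mIDH1 and 3.26 to 5.96% and 6.996 to 10.6% in wtIDH1, and cover counting error only. Both mIDH1 libraries lay below both wtIDH1 libraries, but the interval of mIDH1 replicate 1 overlapped that of wtIDH1 replicate 1. The means were 2.58 ± 1.20% in mIDH1 and 6.53 ± 2.98% in wtIDH1 (SD, n = 2 each), a ratio of 0.395. The exact permutation test over libraries gave p = 0.333 (two-sided), the smallest value that 2 against 2 libraries allow.

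Neutrophils also hold Lyz2, and cells with neutrophil S100 RNA were more frequent in mIDH1, so the share was also taken of Lyz2 cells outside neutrophils and T cells. It was then 3.79% and 2.01% in mIDH1 (24 of 634 and 10 of 498) and 4.60% and 8.93% in wtIDH1 (40 of 869 and 80 of 896). The means were 2.90 ± 1.26% in mIDH1 and 6.77 ± 3.06% in wtIDH1 (SD, n = 2 each; exact permutation p = 0.333). The difference of -3.87 percentage points was -1.71 without wtIDH1 replicate 2 and -6.03 without wtIDH1 replicate 1. It rested in size on wtIDH1 replicate 2, the only library whose interval, 7.23 to 10.98%, lay clear of the other 3.

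The separation by genotype depended on the limit and on depth. With at least 5 UMIs of Mki67 plus Top2a the share was 2.52% and 1.41% in mIDH1 and 1.73% and 5.13% in wtIDH1, so that mIDH1 replicate 1 lay above wtIDH1 replicate 1. After each cell was thinned to 5000 UMIs, 6 of 474 and 1 of 397 cells in mIDH1 and 6 of 610 and 26 of 648 in wtIDH1 met the rule, or 1.27% and 0.252% in mIDH1 and 0.984% and 4.01% in wtIDH1. The groups overlapped in both cases. They also overlapped without the cells of highest doublet score (3.94% and 2.06% in mIDH1, 3.76% and 8.27% in wtIDH1; exact permutation p = 0.667) and without cells that held UMIs of other lineages (3.38% and 1.74% in mIDH1, 3.34% and 8.11% in wtIDH1; exact permutation p = 0.667). With at most 5% mitochondrial UMIs they stayed apart (2.86% and 1.94% in mIDH1, 3.85% and 5.80% in wtIDH1).

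**Figure D1:**
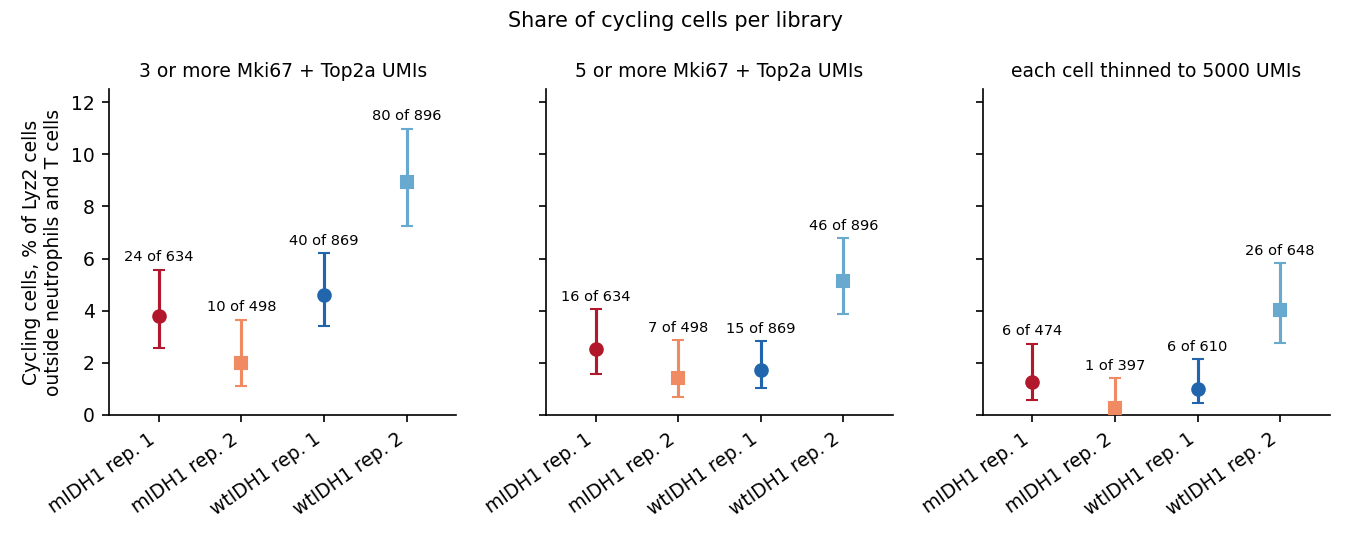
Share of cycling cells among Lyz2 cells outside neutrophils and T cells (y axis, percent) in each library (x axis), with 95% Wilson intervals as bars and the cell counts above, at 3 or more UMIs of Mki67 plus Top2a, at 5 or more, and after thinning to 5000 UMIs per cell. At 3 or more, the mIDH1 libraries (3.79% and 2.01%) lie below the wtIDH1 libraries (4.60% and 8.93%), while in the other panels mIDH1 replicate 1 lies above wtIDH1 replicate 1.

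Cell cycle RNA was also summed over all Lyz2 cells outside neutrophils and T cells, which uses no limit on Mki67 or Top2a. The S phase list stood at 720 and 658 CPM in mIDH1 and 829 and 1158 CPM in wtIDH1, with both mIDH1 libraries lower. The G2 and M phase list stood at 1298 and 1012 CPM in mIDH1 and 1095 and 1522 CPM in wtIDH1, where the groups overlapped. The cycling cells carried 33.1% and 21.2% of these UMIs in mIDH1 and 20.2% and 45.0% in wtIDH1. Cells with 1 or 2 UMIs of Mki67 plus Top2a (83 and 44 in mIDH1, 155 and 163 in wtIDH1) carried 14.4% and 12.2% in mIDH1 and 20.3% and 16.05% in wtIDH1, and the rest lay in non-cycling cells.

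Most cycling cells held C1q RNA of macrophages, with or without Ly6c2 and Ccr2, genes of young monocytes. Of the 154, 80 (51.9%) had at least 5 UMIs of the complement genes C1qa, C1qb and C1qc without 2 UMIs of Ly6c2 plus Ccr2, 60 (39.0%) had both, 12 (7.79%) had Ly6c2 and Ccr2 alone and 2 (1.30%) had neither. Of the 2298 non-cycling cells, 486 had C1q alone, 798 both, 894 Ly6c2 and Ccr2 alone and 120 neither. The split was made on Ly6c2 and Ccr2 only. The whole monocyte list had at least 2 UMIs in 100% and 100% of cycling cells in mIDH1 and 100% and 97.5% in wtIDH1. In non-cycling cells it did so in 97.3% and 98.2% in mIDH1 and 98.2% and 96.5% in wtIDH1. Nearly all cells pass this limit, so it cannot tell which cells hold monocyte RNA of their own. Cycling cells were deeper, and those with Ly6c2 and Ccr2 alone had the lowest median depth (13563 UMIs, against 27841 in cells with both). The contrast with non-cycling cells was fixed by the choice of cells and was not tested.

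C1q genes, which mature tissue macrophages make in quantity, reached the limit in 91.7% and 80% of cycling cells in mIDH1 and 85% and 95% in wtIDH1. In cycling T cells, which should lack them, 9 of 110 and 0 of 32 cells in mIDH1 and 11 of 70 and 8 of 87 in wtIDH1 did so. The C1q limit was also reached by 6 of 76 and 0 of 28 cells rich in B cell markers in mIDH1. In wtIDH1 it was reached by 9 of 45 and 15 of 58 of them. Their median depths were 5599 to 7743 UMIs. Ly6c2 plus Ccr2 reached their limit in 41.7% and 60.0% of cycling Lyz2 cells in mIDH1 and 62.5% and 38.8% in wtIDH1. Cycling T cells, which can make both genes, did so in 53 of 110 and 12 of 32 in mIDH1 and 36 of 70 and 42 of 87 in wtIDH1, about as often, so the share was not read as a share of monocytes. With the identity genes thinned to 5000 UMIs, the limit was reached in 3 of 24 and 4 of 9 cycling Lyz2 cells in mIDH1 and 20 of 37 and 17 of 75 in wtIDH1. Neither share separated the genotypes (exact permutation p = 0.667 for C1q and 1 for Ly6c2 and Ccr2, both 1 after Benjamini-Hochberg adjustment over 4 identity shares). In level, C1qa stood at 3881 and 2075 CPM in cycling mIDH1 cells and 2389 and 4015 CPM in cycling wtIDH1 cells. In every library this was above the level in non-cycling cells, which was 2118 and 1186 CPM in mIDH1 and 1619 and 2307 CPM in wtIDH1, but 1 cell gave 268 of the 532 UMIs of mIDH1 replicate 2, which stood at 1118 CPM without it. Ccr2, the receptor that draws monocytes into tissue, lay lower in cycling cells of every library, at 104 and 156 CPM in mIDH1 and 369 and 179 CPM in wtIDH1, against 516 and 554 CPM and 757 and 584 CPM in non-cycling cells of mIDH1 and wtIDH1.

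Microglia genes were held by very different shares of the cycling cells from library to library. Sums of P2ry12, Tmem119, Sall1, Siglech, Gpr34 and Slc2a5 of at least 2 UMIs occurred in 58.3% and 10.0% of cycling cells in mIDH1 and 32.5% and 26.3% in wtIDH1, against 8 of 110 and 0 of 32 cycling T cells in mIDH1 and 9 of 70 and 6 of 87 in wtIDH1. The mIDH1 libraries were the highest and the lowest of the 4 (exact permutation p = 1). The share depended on depth: with the identity genes thinned to 5000 UMIs per cell it was 20.8% and 0% in mIDH1 and 2.70% and 6.67% in wtIDH1. Cells rich in B cell markers reached the limit in 20 of 76 and 8 of 28 in mIDH1 and 16 of 45 and 25 of 58 in wtIDH1, so low shares were not read as microglia; the list holds Siglech, which plasmacytoid dendritic cells also make. At least 20 UMIs of the 13 microglia markers occurred in 6 and 1 cycling cells of mIDH1 and 5 and 13 of wtIDH1, and the 2 richest cells, in wtIDH1 replicate 2, held 130 and 142. Among non-cycling cells, which were less deep, such counts were found in 3.98% and 0.450% in mIDH1 and 2.97% and 2.91% in wtIDH1. Per UMI the 13 markers did not lie higher in cycling cells of every library. They stood at 665 and 140 CPM in cycling mIDH1 cells and 359 and 568 CPM in cycling wtIDH1 cells. Non-cycling cells had 308 and 141 CPM in mIDH1 and 374 and 427 CPM in wtIDH1. In wtIDH1 replicate 1, 1 of the cycling cells with such counts held 29 of these UMIs beside 944 of the monocyte list. Dendritic cell genes reached 2 UMIs in 1 of 24 and 0 of 10 cycling cells in mIDH1 and 0 of 40 and 1 of 80 in wtIDH1, against 2 of 110 and 0 of 32 cycling T cells in mIDH1 and 0 of 70 and 0 of 87 in wtIDH1, too few cells to compare.

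**Figure D2:**
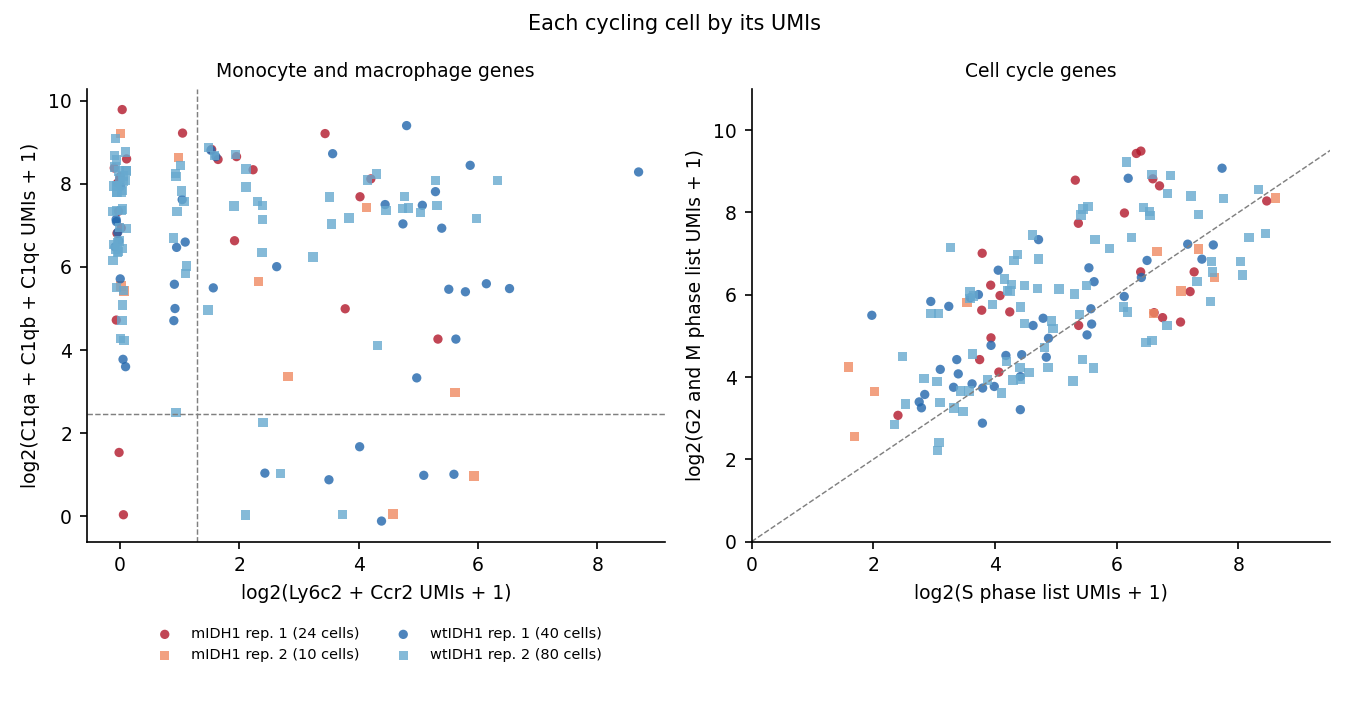
Each cycling cell by its UMIs on log2(UMIs + 1) scales, with red and orange points for the 2 mIDH1 libraries and blue points for the 2 wtIDH1 libraries. Left, Ly6c2 plus Ccr2 (x) against the 3 C1q genes (y), with dashed lines at the limits of 2 and 5 UMIs and a small sideways shift so that equal points can be told apart; 140 of 154 cells lie above the C1q limit. Right, S phase list (x) against G2 and M phase list (y), with the line of equal UMIs; 50 of 154 cells lie to its right.

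Beyond Mki67 and Top2a themselves, the cell cycle program was read across its phases. The rule used this contrast, since cells were chosen by Mki67 and Top2a, so the following levels are a description with no test. Ccna2, the cyclin of S phase and G2, stood at 87.8 and 50.7 CPM in cycling mIDH1 cells and 50.2 and 70.1 CPM in cycling wtIDH1 cells, and at no more than 0.999 CPM in non-cycling cells of any library. Pclaf, which binds the replication clamp PCNA, stood at 205 and 199 CPM in mIDH1 and 72.6 and 177 CPM in wtIDH1, against 0.647 to 1.90 CPM in non-cycling cells. Birc5, the chromosomal passenger survivin, reached 153 and 105 CPM in mIDH1 and 68.3 and 101 CPM in wtIDH1, against 0.296 to 1.71 CPM in non-cycling cells. All 3 were thus far lower in the non-cycling cells. None of them was part of the rule, but the choice of cells favours this contrast. Cells with 1 or 2 UMIs of Mki67 plus Top2a were not part of the comparison.

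For mitosis, Ube2c stood at 289 and 62.4 CPM in cycling mIDH1 cells and 114 and 184 CPM in cycling wtIDH1 cells, against 1.72 to 4.30 CPM in non-cycling cells. Cdk1 stood at 98.2 and 89.7 CPM in mIDH1 and 44.8 and 72.9 CPM in wtIDH1, against 1.29 to 3.85 CPM. Hmmr, a spindle protein, varied widely between libraries, at 121 and 23.4 CPM in mIDH1 and 12.8 and 66.1 CPM in wtIDH1. Rrm2, which makes the building blocks of DNA, was at 50.6 and 152 CPM in mIDH1 and 47.0 and 98.9 CPM in wtIDH1, highest in the library with the lowest Ube2c. The replication-dependent histones Hist1h2ap (485 and 1303 CPM in mIDH1, 239 and 520 CPM in wtIDH1) and Hist1h1b (26.8 and 242 CPM in mIDH1, 20.3 and 37.9 CPM in wtIDH1) were likewise highest in mIDH1 replicate 2. Histone genes are near-identical copies and their counts are uncertain.

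Over the lists, 60 of 62 G2 and M phase genes were higher in cycling than in non-cycling cells in all 4 libraries, with median ratios of 41.9 and 23.4 in mIDH1 and 15.6 and 25.1 in wtIDH1. For S phase this held for 53 of 55 genes, with median ratios of 7.17 and 15.1 in mIDH1 and 3.68 and 5.04 in wtIDH1. Nucleotide synthesis genes followed with 27 of 32. Among all 9568 genes with at least 5 CPM the same held for 22.1%, and their median ratios were between 1.01 and 1.08. None of the 14 monocyte genes was higher in cycling cells of all 4 libraries, and their median ratios were 0.24 and 0.40 in mIDH1 and 0.53 and 0.24 in wtIDH1.

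Among the genes of lowest ratio were Chil3, Cxcl3, Vcan, Ifitm6, Slfn5, Ccr2 and Osm, of which Chil3, Vcan, Ifitm6 and Ccr2 are on the monocyte list. Chil3, a chitinase-like protein of young monocytes, stood at 409 and 1104 CPM in cycling mIDH1 cells and 290 and 15.8 CPM in cycling wtIDH1 cells, against 2122 and 3953 CPM in non-cycling mIDH1 cells and 910 and 283 CPM in non-cycling wtIDH1 cells. The matrix protein Vcan, the neutrophil-attracting chemokine Cxcl3 and the cytokine Osm were also lower in cycling cells of every library. Cdkn1a, which encodes the cell cycle inhibitor p21, stood at 223 and 335 CPM in cycling mIDH1 cells and 358 and 254 CPM in cycling wtIDH1 cells, against 583 and 797 CPM and 636 and 548 CPM in non-cycling cells of mIDH1 and wtIDH1. Ccnd1, the cyclin that carries growth factor signals into the cycle, lay higher in cycling cells, at 195 and 226 CPM in mIDH1 and 348 and 148 CPM in wtIDH1 (180 of the 326 UMIs of wtIDH1 replicate 1 in 1 cell), against 94.1 and 56.1 CPM and 104 and 113 CPM in non-cycling cells.

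**Figure D3:**
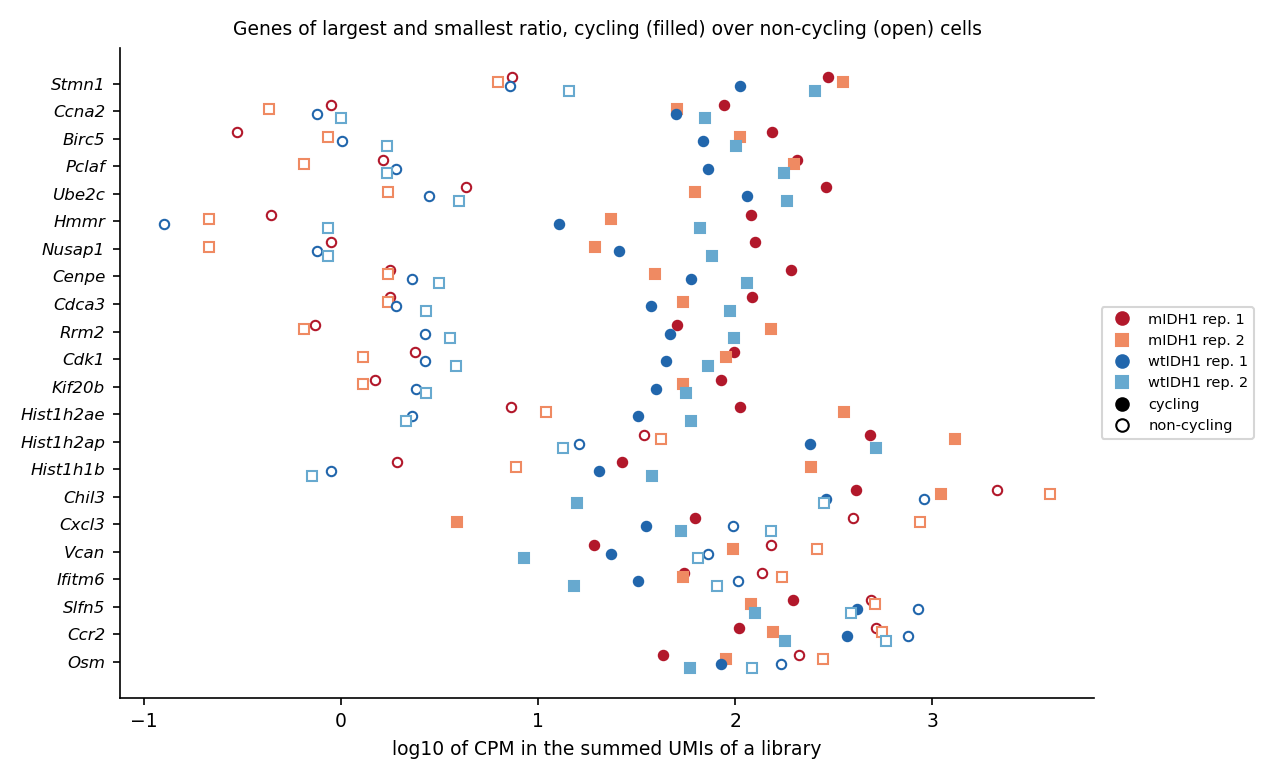
Levels (x axis, log10 of CPM) of the 15 genes with the largest and of 7 with the smallest ratio of cycling to non-cycling cells over the 4 libraries, with filled points for cycling and open points for non-cycling cells, mIDH1 in red and orange and wtIDH1 in blue. The 15 cell cycle and histone genes lie to the right in cycling cells of every library and the 7 below them, from Chil3 to Osm, to the left.

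The phase within the cycle did not separate the genotypes. UMIs of the S phase list made up 28.7% and 54.6% of all S plus G2 and M phase UMIs in mIDH1 and 36.5% and 37.4% in wtIDH1. The mIDH1 libraries thus lay on either side of the wtIDH1 libraries, with means of 41.7 ± 18.3% in mIDH1 and 37.0 ± 0.692% in wtIDH1 (SD, n = 2 each; exact permutation p = 1). Counted per cell, S phase UMIs outnumbered the others in 7 of 24 and 5 of 10 cells in mIDH1 and 12 of 40 and 26 of 80 in wtIDH1. Without mIDH1 replicate 2 the difference in the summed share was -8.21 percentage points, and without mIDH1 replicate 1 it was 17.7.

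No gene passed the test between cycling mIDH1 and cycling wtIDH1 cells: edgeR's quasi-likelihood test on UMIs summed per library called 0 of 7760 genes (0%) at a Benjamini-Hochberg adjusted p of 0.05. At an unadjusted p under 0.05 there were 616 genes (7.94%), and DESeq2 called 19 (15 higher and 4 lower in mIDH1). DESeq2 gave no adjusted p for 4664 of the 7760 genes. The count of 0 became 64 without wtIDH1 replicate 1, 40 without wtIDH1 replicate 2 and 4 without mIDH1 replicate 2, fits in which the lone library is assumed to vary like the others. On simulated counts with these cells' depths the test found 51.5% of genes changed 4-fold but 2.99% of those changed 2-fold, so that changes of that size were mostly not detectable here. Log2 fold changes are mIDH1 over wtIDH1. The genes below had the lowest p, with mean levels of at least 20 CPM and libraries that did not overlap by genotype. Non-overlap was common: 15.1% of all tested genes were higher and 29.4% lower in both mIDH1 libraries.

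Of the 8 genes on the higher side, Cst7 had the lowest p. Cst7 (chr2:150570415-150578944, mm10), which encodes cystatin F, an inhibitor of lysosomal proteases, was at 98.2 and 81.9 CPM in mIDH1 and 12.8 and 15.3 CPM in wtIDH1 (log2 fold change 2.81, SE 0.36; edgeR adjusted p = 0.208). Its UMIs came from few cells, 66 UMIs in 7 cells and 21 in 3 in mIDH1 and 12 in 8 and 27 in 10 in wtIDH1. The cells rich in microglia markers held much of it: 14, 1, 1, 22, 2 and 11 UMIs in the 6 of mIDH1 replicate 1, and 19 in the 1 of mIDH1 replicate 2, against 0 in each of the 5 of wtIDH1 replicate 1 and at most 5 in any of wtIDH1 replicate 2. Without the cell of each library that held most Cst7, an alternative chosen after seeing the data, the level was 69.2 and 8.47 CPM in mIDH1 and 8.85 and 12.1 CPM in wtIDH1, so that the separation in mIDH1 replicate 2 rested on 1 cell. NK and T cells also make Cst7, and their lists were at 1 and 1 and at 4 and 2 UMIs in mIDH1.

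Prtn3 (chr10:79874476-79883174), a protease stored in the granules of neutrophil and monocyte precursors, was at 66.96 and 117 CPM in mIDH1 and 10.7 and 5.65 CPM in wtIDH1 (log2 fold change 3.65, SE 0.51; edgeR adjusted p = 0.208). A single cell gave 21 of the 45 UMIs of mIDH1 replicate 1 and another 24 of the 30 of mIDH1 replicate 2, where 1 cell also held 56 of the 64 UMIs of neutrophil precursor markers. Saa3 (chr7:46711998-46715700), an acute-phase protein, was at 693 and 215 CPM in mIDH1 and 29.9 and 3.39 CPM in wtIDH1 (5.04, SE 0.89). Wfdc21, a small secreted protein listed with the neutrophil genes, was at 84.8 and 211 CPM in mIDH1 and 18.1 and 1.70 CPM in wtIDH1 (4.20, SE 0.85), and all 17 UMIs of wtIDH1 replicate 1 came from 1 cell. In each of these 3 genes every mIDH1 library lay above every wtIDH1 library, with much of the signal in single cells.

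The other 4 genes encode a calcium-binding protein, a channel and cytoskeletal proteins. S100a4, the calcium-binding protein, found in migrating monocytes, was at 466 and 554 CPM in mIDH1 and 149 and 42.4 CPM in wtIDH1 (2.57, SE 0.57), with 149 of the 313 UMIs of mIDH1 replicate 1 in 1 cell. Rhoc, a GTPase of the cytoskeleton, was at 125 and 144 CPM in mIDH1 and 47.0 and 19.2 CPM in wtIDH1 (2.20, SE 0.47). Add3, which ties actin to the membrane, was at 89.3 and 35.1 CPM in mIDH1 and 11.7 and 17.0 CPM in wtIDH1 (2.30, SE 0.46), and Kcnn4, a calcium-activated potassium channel, at 71.4 and 113 CPM in mIDH1 and 31.0 and 15.3 CPM in wtIDH1 (2.15, SE 0.47). In mIDH1 replicate 2 a single cell gave 5 of the 9 UMIs of Add3 and 14 of the 29 of Kcnn4. For Saa3, Wfdc21 and these genes edgeR's adjusted p was 0.525 or 0.561. Without the deepest cell of each library, an alternative chosen after seeing the data, edgeR called 8 genes, which were Wfdc21, Cst7, Saa3, S100a8, Prtn3, Rhoc, Gpnmb and Adamdec1. The rule itself limits S100a8, so its call was not read as a difference between genotypes. Leaving out cells with UMIs of other lineages gave 10 calls, among them Cst7, Prtn3, Saa3, S100a4, Gpnmb and Adamdec1.

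The 8 genes on the lower side were Gpnmb, Vcam1, Neurl3, Dnase1l3, Tnfaip3, Adamdec1, Dusp6 and Tspan13. Gpnmb (chr6:49036546-49070929), a glycoprotein of lipid-laden macrophages, was at 126 and 42.9 CPM in mIDH1 and 718 and 569 CPM in wtIDH1 (-2.72, SE 0.48). Vcam1 (chr3:116109949-116129688), an adhesion molecule, was at 1.49 and 7.80 CPM in mIDH1, which were 1 and 2 UMIs, and 39.5 and 79.2 CPM in wtIDH1 (-3.99, SE 0.74). Adamdec1 (chr14:68563380-68582095), a secreted metalloprotease of macrophages and dendritic cells, was at 26.8 and 0 CPM in mIDH1 and 149 and 490 CPM in wtIDH1 (-4.08, SE 0.83), with 44 of 80 cells of wtIDH1 replicate 2 holding it and 3 of 24 of mIDH1 replicate 1. Dnase1l3, an extracellular DNase, was at 7.44 and 3.90 CPM in mIDH1 and 38.4 and 51.4 CPM in wtIDH1 (-2.69, SE 0.52). These 4 genes were low in both mIDH1 libraries, and edgeR's adjusted p was 0.525 for each.

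Tnfaip3, which encodes the NF-kappaB inhibitor A20, was at 26.8 and 31.2 CPM in mIDH1 and 149 and 107 CPM in wtIDH1 (-2.03, SE 0.40). Dusp6, a phosphatase that turns off ERK, was at 101 and 66.3 CPM in mIDH1 and 303 and 309 CPM in wtIDH1 (-1.70, SE 0.35). The libraries of each genotype lay close together in both genes. Neurl3, a ubiquitin ligase, was at 28.3 and 23.4 CPM in mIDH1 and 112 and 109 CPM in wtIDH1 (-1.93, SE 0.37), and the tetraspanin Tspan13 at 17.9 and 19.5 CPM in mIDH1 and 91.8 and 66.7 CPM in wtIDH1 (-1.96, SE 0.42). All 4 had an edgeR adjusted p of 0.525. Of the genes named on both sides, only Cst7 passed the test of the difference from non-cycling cells given below. The genotype effect in the others is therefore not shown to be particular to cycling cells.

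**Figure D4:**
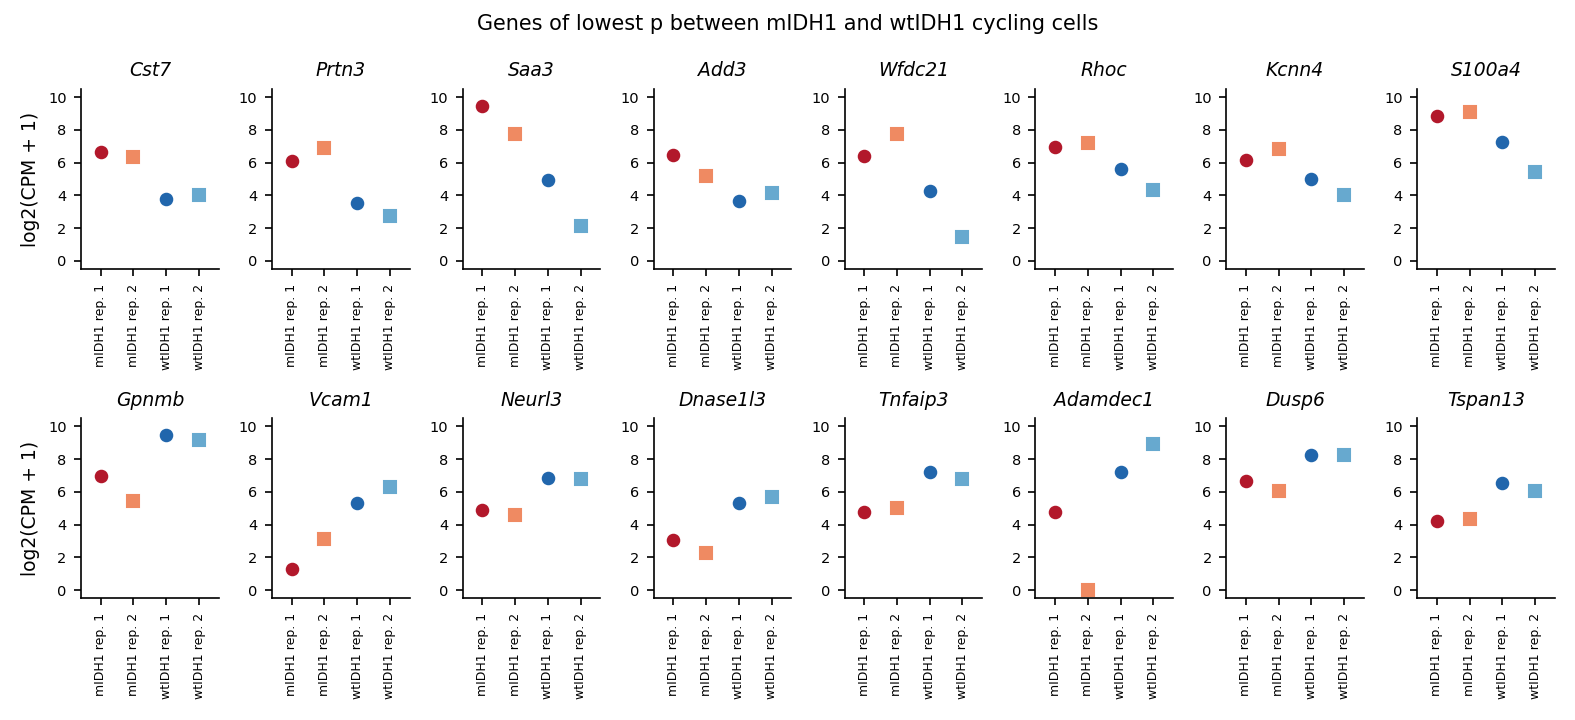
Level of each of the 16 genes of lowest p in cycling cells (y axis, log2(CPM + 1)) in the 4 libraries (x axis, mIDH1 in red and orange, wtIDH1 in blue), 1 point per library. In the upper row both mIDH1 points lie above both wtIDH1 points and in the lower row below them, which is how the genes were chosen; Adamdec1 is at 0 in mIDH1 replicate 2.

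Genes that set the pace of macrophage division are given by their levels, since none of the 7760 tested genes passed in cycling cells. Changes of 2-fold were mostly not detectable. Ccnd3, a D-type cyclin, lay higher in both mIDH1 libraries, at 74.4 and 133 CPM in mIDH1 and 47.0 and 31.7 CPM in wtIDH1 (log2 fold change 1.52, SE 0.43; edgeR adjusted p = 0.583). Ccnd2 was at 220 and 343 CPM in mIDH1 and 250 and 472 CPM in wtIDH1, with overlap. Maf, a brake on macrophage division, was at 249 and 66.3 CPM in mIDH1 and 263 and 323 CPM in wtIDH1 (-0.72, SE 0.50; edgeR adjusted p = 0.724). The low Maf value was that of mIDH1 replicate 2, the library with 10 cells. Myc, a driver of growth, was low throughout, at 14.9 and 23.4 CPM in mIDH1 and 18.1 and 14.1 CPM in wtIDH1 (0.31, SE 0.54; edgeR adjusted p = 0.902).

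Effector genes of tumour macrophages were abundant in the cycling cells. Arg1, which uses up arginine, was at 6289 and 2520 CPM in mIDH1 and 2574 and 1891 CPM in wtIDH1 (1.10, SE 0.51; edgeR adjusted p = 0.632). Nos2, the inducible nitric oxide synthase, was at 80.4 and 234 CPM in mIDH1 and 72.6 and 18.1 CPM in wtIDH1 (1.95, SE 0.71; edgeR adjusted p = 0.600), but 59 of the 60 UMIs of mIDH1 replicate 2 came from 1 cell. The class II antigen presentation gene H2-Aa was at 2507 and 1646 CPM in mIDH1 and 1027 and 1082 CPM in wtIDH1 (1.12, SE 0.40; edgeR adjusted p = 0.586). Cd274, which encodes the T cell inhibitor PD-L1, overlapped between genotypes, at 159 and 58.5 CPM in mIDH1 and 260 and 135 CPM in wtIDH1 (-0.66, SE 0.49; edgeR adjusted p = 0.742). Spp1 (osteopontin) was at 2918 and 4923 CPM in mIDH1 and 1149 and 1519 CPM in wtIDH1 (1.72, SE 0.47; edgeR adjusted p = 0.576). In mIDH1 replicate 2 the richest cell for each gene gave 387 of the 646 UMIs of Arg1, 263 of the 422 of H2-Aa and 1049 of the 1262 of Spp1. Without the richest cell for the gene in each library, an alternative chosen after seeing the data, that library stood at 1107 CPM for Arg1, against 2342 and 1749 CPM in wtIDH1. It then stood at 726 CPM for H2-Aa, against 933 and 1012 CPM in wtIDH1, and at 982 CPM for Spp1, against 1011 and 1308 CPM in wtIDH1. The separation of the genotypes in H2-Aa and Spp1 thus rested on 1 cell for each gene. Idh1 itself was at 103 and 42.9 CPM in mIDH1 and 43.8 and 70.1 CPM in wtIDH1 with overlap. The counts do not tell mutant from normal transcripts, so they give no IDH1 genotype for these cells.

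Lists of genes gave no call in the cycling cells, as for all genes (0%). A list is described by its median log2 fold change, beside the median of -0.00 over all 7760 tested genes, of which 3878 were above 0. For S phase, 51 of 55 genes were tested, with a median of 0.54 and 47 above 0, and for G2 and M phase 59 of 63, with 0.57 and 57 above 0. The UMIs of Mki67 plus Top2a by which cells were chosen moved with these lists, with medians of 8 and 6 per cell in mIDH1 and 4 and 5.5 in wtIDH1, and their part was not tested. Summed levels overlapped between genotypes for S phase (2563 and 4186 CPM in mIDH1, 1733 and 2904 CPM in wtIDH1) and for G2 and M phase (6354 and 3479 CPM in mIDH1, 3019 and 4851 CPM in wtIDH1). Cytosolic ribosomal proteins had a median of 0.77 (80 of 81 tested above 0), the mitochondrial respiratory chain 0.76 (70 of 74), nucleotide synthesis 0.43 (27 of 32) and glycolysis 0.46 (16 of 19). The ribosomal genes summed to 123738 and 214398 CPM in mIDH1 and 117983 and 118310 CPM in wtIDH1, so that mIDH1 replicate 2, the library of 10 cells, stood apart and mIDH1 replicate 1 lay close to wtIDH1. Rpl32 is 1 of the ribosomal genes, at 1647 and 3565 CPM in mIDH1 and 1129 and 1040 CPM in wtIDH1, and Atp5g1, a subunit of ATP synthase, was at 262 and 324 CPM in mIDH1 and 121 and 138 CPM in wtIDH1. Scaling by library totals alone moved the median of all genes to -0.14.

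Below 0 lay the type I interferon response, with a median of -0.57 and 1 of 32 tested genes above 0. Its genes summed to 4024 and 2223 CPM in mIDH1 and 6782 and 3402 CPM in wtIDH1, so that the genotypes overlapped and wtIDH1 replicate 1 stood above the rest, as it did in non-cycling cells (5927 and 5950 CPM in mIDH1, 10432 and 5175 CPM in wtIDH1). Its examples were Oasl1, a sensor of viral RNA, at 47.6 and 50.7 CPM in mIDH1 and 143 and 66.1 CPM in wtIDH1, and Stat2, which carries the interferon signal, at 87.8 and 39.0 CPM in mIDH1 and 171 and 98.4 CPM in wtIDH1. Lipid-associated macrophage genes had a median of -0.39 (7 of 19 above 0) and heat shock and immediate early genes -0.38 (4 of 20). Hypoxia genes (0.05), inflammatory cytokines and chemokines (0.14), class II presentation (0.09), suppressive mediators (-0.14) and the p53 response (0.10) had medians no farther from 0 than the shift made by scaling, or nearly so.

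In the non-cycling cells of the same libraries edgeR called 587 of 10730 genes (5.47%), 465 higher in mIDH1 (4.33%) and 122 lower (1.14%). With library totals alone the split was 264 higher and 412 lower, with a median shift of -0.29, and without mIDH1 replicate 2 there were 76 calls and without wtIDH1 replicate 1 there were 968. There 12 of 22 hypoxia genes, 11 of 24 inflammatory cytokines and chemokines, 8 of 20 glycolysis genes and 21 of 79 respiratory chain genes rose in mIDH1. None of these lists had a call in the cycling cells, which gave far fewer UMIs. The difference of the genotype effect, tested directly below, passed for none of the genes of these 4 lists.

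The difference of the genotype effect, cycling minus non-cycling cells of the same library, passed the threshold for 6 of 10793 genes (0.0556%) in edgeR's quasi-likelihood test with Benjamini-Hochberg adjustment, 2 higher (0.0185%) and 4 lower (0.0371%), and 703 had an unadjusted p under 0.05. A block by replicate number, in place of the block by library, gave 0 calls. Without mIDH1 replicate 1 there were 628 calls, and without each other library 21 to 32. Thbs1 (chr2:118111876-118127133), a matrix protein that monocytes secrete, was at 90.8 and 121 CPM in cycling mIDH1 cells and 427 and 267 CPM in cycling wtIDH1 cells. In non-cycling cells it was at 1017 and 1006 CPM in mIDH1 and 773 and 769 CPM in wtIDH1. It was thus lower in mIDH1 among cycling cells and higher among non-cycling cells (difference -2.21, SE 0.32; edgeR adjusted p = 0.0399). Without wtIDH1 replicate 1 the adjusted p was 0.196.

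Mmp13 (chr9:7272514-7283331), a collagenase, was at 65.5 and 11.7 CPM in cycling mIDH1 cells and 145 and 288 CPM in cycling wtIDH1 cells. In non-cycling cells it was at 166 and 89.0 CPM in mIDH1 and 75.2 and 117 CPM in wtIDH1, with overlap (difference -2.87, SE 0.38; edgeR adjusted p = 0.0360). Hspa1a (chr17:34969190-34972156), an inducible heat shock protein, had 3 and 1 UMIs in cycling mIDH1 cells (4.46 and 3.90 CPM) and 30 and 19 in cycling wtIDH1 cells (32.0 and 10.7 CPM). In non-cycling cells it was higher in mIDH1, at 119 and 114 CPM against 43.3 and 25.1 CPM in wtIDH1 (difference -4.06, SE 0.58; edgeR adjusted p = 0.0399). Its near-identical neighbour Hspa1b, with which it may share reads, was at 10.4 and 7.80 CPM in cycling mIDH1 cells and 43.8 and 10.7 CPM in cycling wtIDH1 cells.

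Slpi (chr2:164354070-164389095), a protease inhibitor, was at 38.7 and 62.4 CPM in cycling mIDH1 cells and 194 and 20.4 CPM in cycling wtIDH1 cells, with 97 of the 182 UMIs of wtIDH1 replicate 1 in 1 cell. Its difference (-3.44, SE 0.50; edgeR adjusted p = 0.0399) came with non-cycling levels of 239 and 718 CPM in mIDH1 and 102 and 31.8 CPM in wtIDH1. The genotypes thus overlapped for Slpi in cycling cells and not in non-cycling cells. Cst7 was higher in mIDH1 among cycling cells, as given above, and overlapped among non-cycling cells, at 17.3 and 9.06 CPM in mIDH1 and 13.2 and 14.98 CPM in wtIDH1 (difference 2.65, SE 0.40; edgeR adjusted p = 0.0495). Marco (chr1:120474538-120505024), a scavenger receptor, was at 263 and 0 CPM in cycling mIDH1 cells and 1.07 and 5.65 CPM in cycling wtIDH1 cells, with all 177 UMIs of mIDH1 replicate 1 in 3 cells. Its difference (6.40, SE 0.80; edgeR adjusted p = 0.0360) was -2.72 without mIDH1 replicate 1 and 1.03 without wtIDH1 replicate 2, and so rested on those cells and on the wtIDH1 cells at a few UMIs.

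Other genes of low p did not pass the threshold. Mcm6 (chr1:128331590-128359664) was at 96.7 and 109 CPM in cycling mIDH1 cells and 41.6 and 83.7 CPM in cycling wtIDH1 cells, and at 6.67 and 6.25 CPM in non-cycling mIDH1 cells and 14.2 and 20.7 CPM in non-cycling wtIDH1 cells (difference 2.04; edgeR adjusted p = 0.117). It was thus higher in mIDH1 among cycling cells and lower among non-cycling cells. The differences of Mcm7, another subunit of the helicase (1.61; edgeR adjusted p = 0.457), and Stmn1, which breaks down microtubules (1.40; edgeR adjusted p = 0.392), were also above 0. Il1b, the fever cytokine, was at 144 and 382 CPM in cycling mIDH1 cells and 607 and 494 CPM in cycling wtIDH1 cells, with a difference of -1.73 (edgeR adjusted p = 0.0679). Sdc4, a cell surface proteoglycan, had a difference of -1.76 (edgeR adjusted p = 0.0679) and Mmp12, an elastase of macrophages, a difference of -1.64 (edgeR adjusted p = 0.141).

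**Figure D5:**
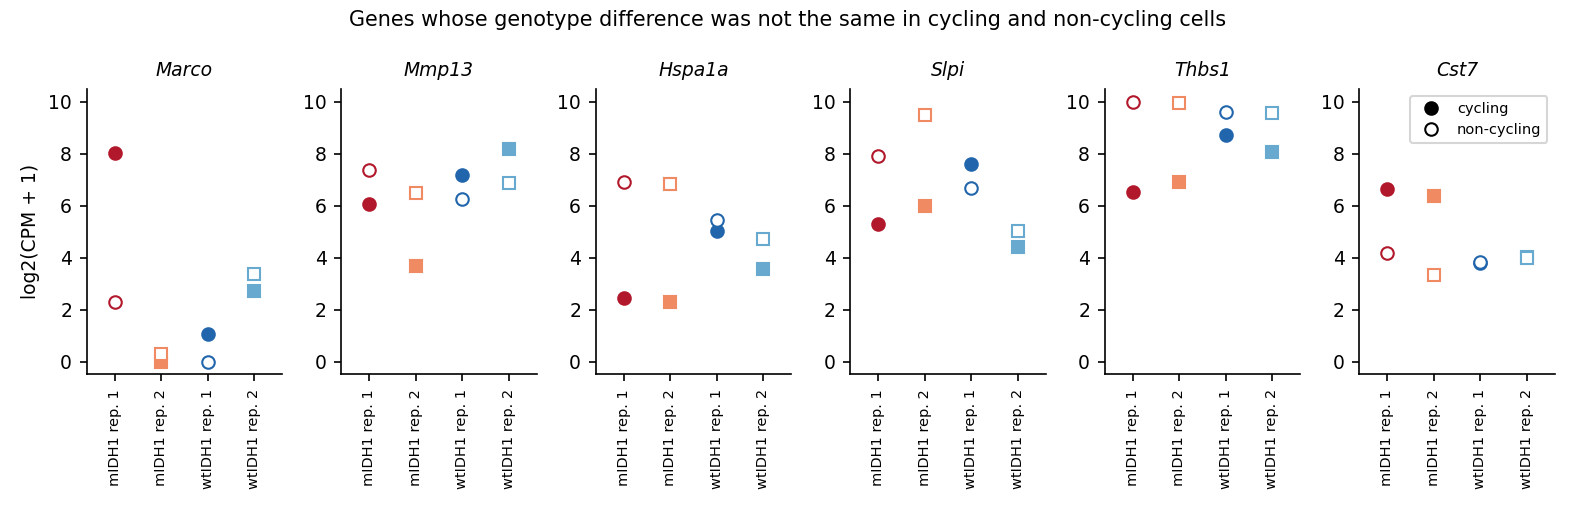
Level (y axis, log2(CPM + 1)) of the 6 genes whose difference passed the threshold, in cycling (filled) and non-cycling (open) cells of the 4 libraries (x axis, mIDH1 in red and orange, wtIDH1 in blue). For Mmp13, Hspa1a, Slpi and Thbs1 the filled points lie below the open points in both mIDH1 libraries, for Cst7 they lie above them there, and for Marco in mIDH1 replicate 1.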

How the data were processed

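The deposited values are raw UMI counts per gene and barcode, 1 matrix per library, which the authors made with Cell Ranger 3.1 and STAR on mm10, per the labels' protocols. The matrix headers name software version 3.0.0. An aggregation to equal depth is described in the labels, but the matrices are separate and unequal in depth. Wet-lab gating is not given in the sources used here.

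Cells were chosen by the rule above, with the members and lists chosen with earlier results of these data known. UMIs were summed per library and tested with edgeR 4.0.16 (quasi-likelihood test, TMM, filterByExpr, Benjamini-Hochberg, 0.05) in R 4.3.3, separately for cycling and non-cycling cells, and once more for the interaction of genotype and cycling, blocked by library. CPM are UMIs scaled to a library's own sum and, being 3' tags, are compared within a gene only. Shares were tested with exact permutation over libraries. Scrublet (scanpy 1.11.5) scores doublets; its own threshold called at most 0.0982% of cells in a library and so had not worked, and the doublet alternative removed the highest scores instead (142 and 121 cells in mIDH1, 93 and 90 in wtIDH1). Genes named are the 8 of lowest p per direction with non-overlapping libraries and at least 20 CPM, the 8 of lowest p per direction for the difference, up to 4 per list, the largest ratios to non-cycling cells, and a fixed set given whatever the result; some genes that these rules name are not reported here. Alternatives were other scaling, no low-count filter, DESeq2 1.42.0, a replicate block, each library left out, other limits, no doublets, no other lineages and thinning. The tests were tested on simulated data. Of the genes changed 4-fold, edgeR found 51.5% in cycling cells, 95.5% in non-cycling cells and 45.5% for the difference. Of those changed 2-fold it found 2.99%, 52.2% and 2.99%. It also called 3, 20 and 3 unchanged genes, in the same order. Also used were limma 3.58.1, matplotlib 3.10.9, pandas 2.3.3, scipy 1.17.1 and numpy 2.4.6 under Python 3.11.15. Gene positions are from GENCODE M21, which matched 30934 of 31053 genes.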

Additional observations from a re-analysis of the deposited data

Results flagged for a closer look

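For 6 genes the effect of genotype differed between cycling and non-cycling cells by edgeR's test of that difference, the log2 fold change of mIDH1 over wtIDH1 in cycling cells minus that in non-cycling cells. The difference was -2.87 for the collagenase Mmp13, -4.06 for the heat shock gene Hspa1a, -3.44 for the protease inhibitor Slpi and -2.21 for Thbs1. It was 2.65 for the cystatin Cst7 and 6.40 for the scavenger receptor Marco. With a block by replicate number in place of the block by library, edgeR called 0 genes for the difference. Mmp13, Hspa1a and Thbs1 lay lower in both cycling mIDH1 libraries than in both cycling wtIDH1 libraries, and Cst7 higher, whereas Slpi and Marco overlapped. The Marco value came from 3 cells of mIDH1 replicate 1. In the microglia-rich cycling cells of mIDH1 replicate 1, Cst7 reached 22 UMIs, and 1 cell held 19 of the 21 Cst7 UMIs of mIDH1 replicate 2.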

How the results depend on the processing

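Scaling, filters, cell limits, doublets, other lineages, depth and each library were varied. The lower mean share of cycling cells in mIDH1 kept its sign in every alternative. Differences in the share of Lyz2 cells were -6.17 to -1.56 percentage points. They were -6.06 to -1.84 when a library was left out (-6.03 to -1.71 for the share outside neutrophils). The libraries did not stay apart by genotype in every alternative. At 5 or more UMIs of Mki67 plus Top2a, mIDH1 replicate 1 stood at 2.29% of Lyz2 cells, above wtIDH1 replicate 1 at 1.66%. After thinning to 5000 UMIs it stood at 1.17%, above 0.963%. The S phase share, 4.72 points higher in mIDH1, was -7.59 after thinning to 5000 UMIs and ranged from -8.21 to 17.7 with a library left out. The Ly6c2 and Ccr2 share turned to -7.28 at 5% mitochondrial UMIs, -4.04 at 2 or more Mki67 plus Top2a UMIs and -9.89 when only the identity genes were thinned, an alternative chosen after seeing the data, and from -11.7 to 12.1 with a library left out. The C1q share was 1.46 without other lineages and 20.5 after thinning (-10.0 to 1.67 with a library left out), and the microglia share -1.92 after thinning (-19.4 to 28.96). The dendritic share was -0.304 at 2 or more UMIs, -0.781 without other lineages, -0.667 with thinned identity genes and -0.625 to 3.54 with a library left out. The cause was not tested.

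Calls in cycling cells, 0 by the test as stated, were 164 with no filter on low counts, 19 with DESeq2, 6 without the highest doublet scores, 10 without other lineages, 3 at 5 or more UMIs, 8 without the deepest cells, an alternative chosen after seeing the data, and 0 to 64 with a library left out. They were 0 with library totals, RLE factors, 5% mitochondrial UMIs, S100 genes under 0.2% and without shared barcodes, also chosen after seeing the data. In non-cycling cells the 587 calls were 1568 with no filter and 76 to 968 with a library left out. For the difference the 6 calls were 105 with no filter, 13 at 5% mitochondrial UMIs, 16 without doublets, 60 without other lineages and 21 to 628 with a library left out. The Marco difference turned to -2.72 without mIDH1 replicate 1 and was up to 6.59 with another library left out. In the tally that follows, a gene with no DESeq2 adjusted p was counted on its main side of the threshold. Of 619 values of single genes under alternatives, 485 kept direction and side of the threshold, 119 passed it newly, 14 no longer passed and 1 reversed.

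The labels give only a replicate number and do not say whether it pairs the libraries. Deviations of same-numbered libraries correlated at -0.191 in cycling and -0.128 in non-cycling cells. With 2 libraries per genotype these values cannot decide whether the libraries are paired. With a replicate block edgeR called 43 genes in cycling cells, 387 in non-cycling cells and 0 for the difference. For the difference this block took the place of the block by library, so cycling and non-cycling sums were no longer matched by library. With 10 cycling cells in 1 library, 2-fold changes were mostly not detectable.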

Other observations

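The cycling cells differed among themselves in their cell cycle makeup. The median cell had 38.6% of its cell cycle UMIs from the S phase list (range 6.00 to 77.8%), and 50 of 154 cells (32.5%) were above 50%. Cells that reached the C1q limit but not that of Ly6c2 and Ccr2 had a median of 7 UMIs of Mki67 plus Top2a, against 4 in cells with both and 3 in cells with Ly6c2 and Ccr2 alone. The S phase share of their summed cell cycle UMIs was 34.5%, against 37.5% in cells with both and 39.7% in cells with Ly6c2 and Ccr2 alone. These classes differ in depth, with medians of 18682.5, 27841 and 13563 UMIs in the same order, and were set by UMI limits, so the values are a description.

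All cycling cells of any type numbered 222 and 114 in mIDH1 and 164 and 232 in wtIDH1. Of these, 27 and 11 in mIDH1 and 45 and 85 in wtIDH1 had at least 10 Lyz2 UMIs, and 110 and 32 in mIDH1 and 70 and 87 in wtIDH1 were rich in T cell markers.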
